A study of Homo sapiens with 15 samples.

Results

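The RNA response to the same labelled depletion, that of THBD, was compared between 2 senescent human cell lines, gene by gene. The rule set the libraries labelled shTHBD set 2 against non-targeting controls in IMR90, set the shTHBD libraries against non-targeting controls in Huh7, and joined both results on gene names listed in both count tables. This took 12 of the 15 samples of the series, with 3 libraries in each of 4 groups; the 3 IMR90 libraries labelled set 1 were left out by the rule. The tables listed 59428 and 59412 genes and shared 38415 names, of which 12454 had enough counts to be tested in both lines.

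IMR90 is a fibroblast line from human lung. Its control and set 2 libraries are both labelled as senescent through HRAS G12V, an activated form of the RAS protein HRAS, and differ in the short hairpin RNA: non-targeting in the controls and directed at THBD in set 2. Huh7 is a carcinoma line derived from human hepatocytes. Its control and shTHBD libraries are both labelled as senescent through palbociclib, an inhibitor of the cell-cycle kinases CDK4 and CDK6, and carry a non-targeting or a THBD hairpin in the same way. The labels do not say whether the hairpin of set 2 and the hairpin of Huh7 have the same sequence, nor how long cells carried them. Line, inducer of senescence, hairpin and count table all change together between the effects, so their parts in a difference cannot be told apart.

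Thrombomodulin, the product of THBD, is a membrane protein that binds thrombin, turns it towards activation of protein C and so limits clotting. Thrombin also signals to cells by cutting the receptors PAR1 and PAR3, the products of F2R and F2RL2, while PAR2 (F2RL1) is cut by other proteases, among them the complex of tissue factor (F3) with factor VIIa. Senescent cells have left the cell cycle, hold high levels of cyclin-dependent kinase inhibitors and secrete cytokines, proteases and growth factors, a mixture known as the senescence-associated secretory phenotype (SASP).

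Library totals lay between 18366369 and 21509229 counts in IMR90, between 19328182 and 20020683 in the Huh7 controls and between 22479132 and 25236178 in the Huh7 shTHBD libraries. The biological coefficient of variation, the spread between replicates beyond counting error, was 3.19% in IMR90 and 8.20% in Huh7. Huh7 shTHBD replicate 3 stood apart from its group, with 9.942% of counts from mitochondrially encoded genes against 7.255% to 8.353% in the other Huh7 libraries; results without it are given below. The description of set 2 replicate 3 names Huh7 while its line, tissue and treatment labels name IMR-90, and its hepatocyte markers summed to 8.96 CPM, as low as in the other IMR90 libraries. CPM stands for counts per 1e6 of the library total, scaled by edgeR's TMM factors. Of the 13 fibroblast markers the sum was 6731 to 6827 CPM in the IMR90 controls and 12270 to 12470 CPM in set 2, and 1060 to 1132 and 1669 to 1713 CPM in the Huh7 controls and shTHBD libraries. In IMR90 most of that gain was in COL1A1 (means of 1800 and 4270 CPM) and COL1A2 (809 and 3420 CPM); 8 of the 13 means were higher in set 2, while those of PDGFRA, PDGFRB, THY1, FAP and TWIST1 were lower (THY1 388 and 200 CPM). In Huh7 10 means were higher and 3 lower. The 15 hepatocyte markers summed to 10030 to 10450 CPM in the Huh7 controls, 7562 to 7751 CPM with shTHBD and 8.527 to 18.15 CPM in IMR90, where 10 to 14 of them were at 0. In Huh7 12 of these means were lower with shTHBD, while 3 were higher: FGB (2330 and 2580 CPM), FOXA2 and APOH. Epithelial markers (8 genes) were at 4638 to 4965 CPM in the Huh7 controls and 2734 to 2903 CPM with shTHBD, and at 85.07 to 96.11 CPM in IMR90. Endothelial markers (9 genes) were at 191 to 200 CPM in the IMR90 controls, 109.2 to 116.3 CPM in set 2 and 9.748 to 15.87 CPM in Huh7. Most of the IMR90 sum was the single gene TIE1 (means of 167 and 97.6 CPM), while PECAM1, CDH5 and KDR were near 0. The 9 leukocyte markers reached 11.74 CPM at most. The part of these marker differences in the results below was not tested, and in bulk RNA fewer cells of a kind and less RNA per cell cannot be told apart.

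THBD itself (chr20:23045633-23049672, minus strand, GRCh38) was at 17, 19.4 and 20.6 CPM in the IMR90 controls and 10.2, 11.2 and 11 CPM in set 2, a log2 fold change of -0.82 ± 0.0966 (SE; adjusted p = 3.9e-11). Every set 2 library lay below every control. In Huh7 the gene had 0, 0 and 6 counts in the controls and 0, 0 and 0 with shTHBD, too few to be tested. At this depth a library without a count could still hold up to 3, equal to 0.116 to 0.156 CPM, from counting error alone. The Huh7 counts therefore do not check the label of the shTHBD libraries.

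Most expressed genes changed in each line, and among those that changed in both, more moved alike than oppositely. By edgeR's quasi-likelihood test with Benjamini-Hochberg adjustment (called under 0.05), 10252 of 14925 genes (68.7%) were called in IMR90 and 9254 of 17474 (53%) in Huh7. Among the 12454 genes tested in both, set 2 raised 4404 (35.4%) and lowered 4575 (36.7%), while shTHBD in Huh7 raised 3623 (29.1%) and lowered 3824 (30.7%). The genes called in both lines numbered 2086 higher in both (16.7%), 2332 lower in both (18.7%), 640 higher in IMR90 and lower in Huh7 (5.14%) and 741 lower in IMR90 and higher in Huh7 (5.95%). That makes 4418 alike and 1381 opposite. Of the genes that shTHBD raised in Huh7, 57.6% were higher and 20.5% lower in IMR90; of those it lowered, 61.0% were lower and 16.7% higher. Whether replicates came from separate cultures is not stated; the p-values therefore reflect the spread among these libraries, which may be technical. The share moved alike is to be read against the large share called in each line, and no test of the overlap was made.

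Larger changes were more one-sided. With at least 1.5-fold in each line, 499 genes (4.01%) rose in both, 975 (7.83%) fell in both, 122 (0.98%) rose in IMR90 and fell in Huh7, and 116 (0.931%) did the reverse. With at least 2-fold in each line 479 moved alike and 69 oppositely. The opposite classes at 1.5-fold held genes of lower level. Their median levels in IMR90 and Huh7 were 4.66 and 14 CPM, and 17.7 and 9.63 CPM for the reverse class. Over all genes they were 24.1 and 28.4 CPM. With a mean of at least 5 CPM asked of a group in each line, 1157 genes moved alike and 119 oppositely by 1.5-fold. Across the 12454 genes the log2 fold changes correlated with a Pearson r of 0.379 and a Spearman rho of 0.407, as a description, since genes of a library share its depth and scaling. In 4 equal bins of the smaller of the mean levels, from the lowest to the highest, rho was 0.238, 0.446, 0.502 and 0.533.

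**Figure D1:**
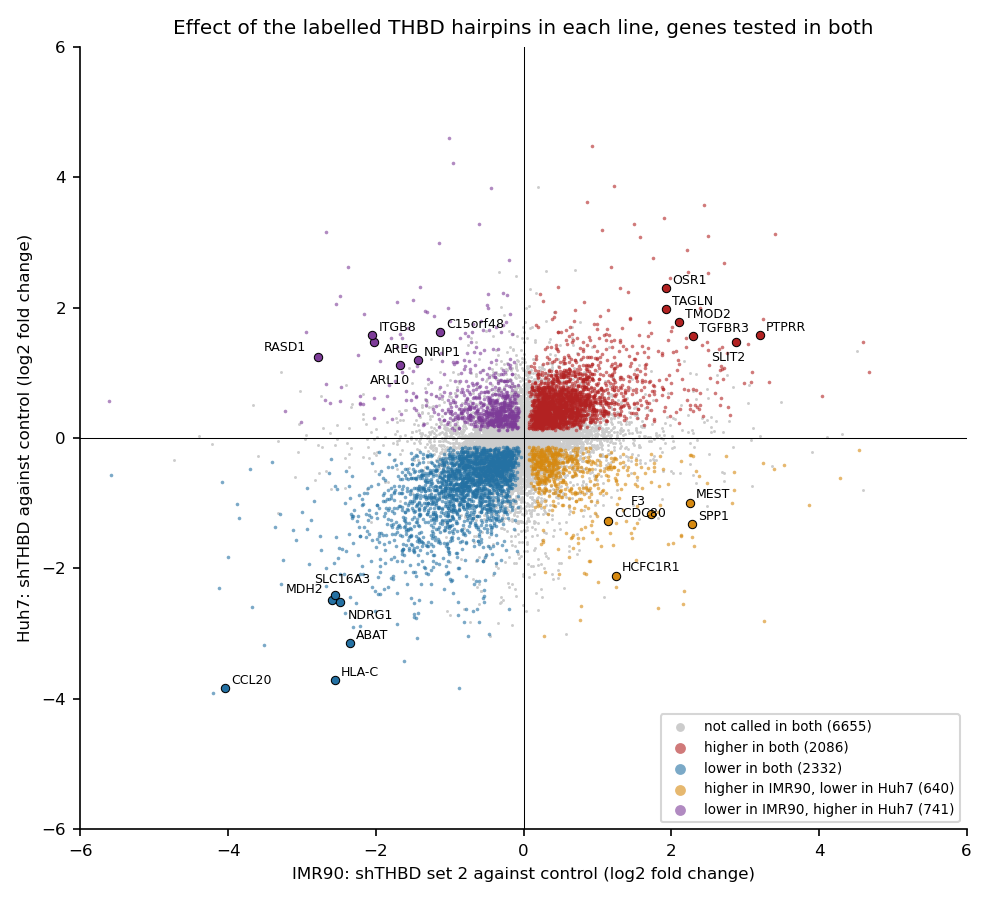
Log2 fold change of each gene tested in both lines in IMR90 (horizontal axis) and in Huh7 (vertical axis), coloured by class, with leading genes of each class named; 4 genes lie outside the plotted range of 6 log2 units. The 4418 genes that moved alike fill the lower left and upper right, and the 1381 that moved oppositely fill the other corners more thinly.

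The difference between the effects was tested in a joint fit of the 12 libraries: the IMR90 effect less the Huh7 effect, as log2. It was called higher in IMR90 for 3432 genes (27.6%) and lower for 3403 (27.3%). The joint fit shared the spread of each gene between the lines (common value 5.71%, against 8.2% in Huh7 alone). SE, intervals and p-values of differences can therefore understate the noise in Huh7. With limma voom and weights per line, 6749 differences were called. All 1381 genes moved oppositely passed the joint edgeR test, an outcome nearly fixed by their choice for opposite calls in the same libraries. So did 939 of the 2086 genes higher in both and 1146 of the 2332 lower in both, which moved the same way by different amounts; among these the larger change was in IMR90 for 493 and 631 genes and in Huh7 for 446 and 515. A further 3180 genes were called in IMR90 only, and 2115 of these also in the difference, as were 1150 of the 1648 called in Huh7 only. Outside the shared set, 1157 genes listed in both tables were tested in IMR90 alone (715 called) and 2880 in Huh7 alone (1268 called). Without Huh7 shTHBD replicate 3, 4433 genes moved alike and 1348 oppositely; without set 2 replicate 3, 4377 and 1311.

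The genes that led each class were taken by the smaller of their log2 fold changes among genes with at least 10 CPM in a group of each line, and their replicates do not overlap between groups because the rule asked for it. Leading the genes raised in both lines was TAGLN, which encodes transgelin, an actin-binding protein of smooth muscle and contractile fibroblasts. TAGLN stood at 120, 111 and 111 CPM in the IMR90 controls and 423, 444 and 434 CPM in set 2, and at 35.5, 40.1 and 40.7 CPM in the Huh7 controls and 146, 166 and 147 CPM with shTHBD. Its log2 fold changes of 1.93 ± 0.0302 in IMR90 and 1.98 ± 0.0725 in Huh7 differed by -0.05 ± 0.0775 (SE; adjusted p = 0.584), with an approximate 95% interval of -0.21 to 0.1. Tropomodulin 2, an actin filament capping protein encoded by TMOD2, had changes of 2.10 ± 0.116 in IMR90 and 1.78 ± 0.179 in Huh7, and the transcription factor gene OSR1 of 1.93 ± 0.122 in IMR90 and 2.30 ± 0.152 in Huh7. TGFBR3 encodes betaglycan, a co-receptor of TGF-beta. It measured 7.29, 7.34 and 9.73 CPM in the IMR90 controls and 40.5, 44.9 and 34.7 CPM in set 2, and 67.2, 67 and 62.6 CPM in the Huh7 controls and 183, 182 and 215 CPM with shTHBD; it rose in both lines but more in IMR90, by 0.73 ± 0.14 (adjusted p = 9.6e-05). SLIT2, a secreted guidance ligand of ROBO receptors, was at 7.67, 7.23 and 7.95 CPM in the IMR90 controls and 58, 54.3 and 56 CPM in set 2, and at 49.5, 46.8 and 49.1 CPM in the Huh7 controls and 123, 133 and 147 CPM with shTHBD, again with the larger rise in IMR90 (difference 1.41 ± 0.109, adjusted p = 4.0e-13). PTPRR, a tyrosine phosphatase that acts on ERK, completed the class with 3.20 ± 0.181 in IMR90 and 1.58 ± 0.154 in Huh7.

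The genes lowered in both lines held larger changes. CCL20, a chemokine that draws cells bearing CCR6, had 133, 128 and 131 CPM in the IMR90 controls and 7.45, 7.42 and 8.91 CPM in set 2. It had 256, 284 and 282 CPM in the Huh7 controls and 19, 20.3 and 18 CPM with shTHBD. The fall was 16.5-fold in IMR90 and 14.3-fold in Huh7, and the difference of -0.20 ± 0.102 did not pass the test (adjusted p = 0.0895, interval -0.41 to 0.0). Without set 2 replicate 3 the CCL20 difference passed it (-0.29, adjusted p = 0.0283). MDH2, the malate dehydrogenase of mitochondria, was at 223, 224 and 223 CPM in the IMR90 controls and 33.7, 37 and 39.7 CPM in set 2, and at 178, 169 and 177 CPM in the Huh7 controls and 30.5, 33.7 and 29.4 CPM with shTHBD. Its falls of -2.60 ± 0.0423 in IMR90 and -2.48 ± 0.0693 in Huh7 were nearly of one size, with an interval of the difference of -0.28 to 0.04. NDRG1, a gene induced by low oxygen, fell by 5.62-fold and 5.73-fold, and SLC16A3, the lactate exporter MCT4, by 5.89-fold and 5.33-fold. Neither difference was called, but that of SLC16A3 was without Huh7 control replicate 3 (-0.21, adjusted p = 0.0154). ABAT, which breaks down the transmitter GABA, had -2.35 ± 0.0808 in IMR90 and -3.14 ± 0.106 in Huh7. HLA-C, which presents peptides to T cells, was at 436, 420 and 422 CPM in the IMR90 controls and 68.3, 72.7 and 75.2 CPM in set 2, and at 225, 215 and 245 CPM in the Huh7 controls and 17.9, 18.6 and 15.4 CPM with shTHBD. Both HLA-C and ABAT fell further in Huh7, by 1.15 ± 0.0825 (adjusted p = 6.3e-14) and 0.78 ± 0.141 (adjusted p = 1.6e-05). HLA class I genes are near copies of each other, and reads that map to several genes were not counted per the options in the header of the IMR90 table, so their values are uncertain.

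The genes that rose in IMR90 and fell in Huh7 included F3, the gene of tissue factor (chr1:94529173-94541759, minus strand, GRCh38). F3 was at 117, 119 and 123 CPM in the IMR90 controls and 390, 394 and 407 CPM in set 2, and at 81.7, 84 and 71.3 CPM in the Huh7 controls and 36.6, 34.5 and 35 CPM with shTHBD. Its log2 fold changes were 1.73 ± 0.0295 in IMR90 and -1.16 ± 0.0784 in Huh7. The F3 effects differed by 2.89 ± 0.0761 (adjusted p = 4.8e-26). SPP1 encodes osteopontin, a secreted matrix protein; it was at 7.24, 5.24 and 6.95 CPM in the IMR90 controls and 30, 31.3 and 33.8 CPM in set 2, and at 1040, 1010 and 982 CPM in the Huh7 controls and 402, 392 and 423 CPM with shTHBD. The SPP1 effects differed by 3.60 ± 0.0928 (adjusted p = 5.8e-26). CCDC80, a secreted matrix protein gene, had 1.15 ± 0.0303 in IMR90 and -1.28 ± 0.0539 in Huh7, and MEST, an imprinted gene, had 2.25 ± 0.157 in IMR90 and -0.99 ± 0.0659 in Huh7. HCFC1R1, whose product binds the cell-cycle cofactor HCFC1, had 1.25 ± 0.0896 in IMR90 and -2.11 ± 0.132 in Huh7.

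Genes that fell in IMR90 and rose in Huh7 were led by RASD1, a RAS-like G protein induced by glucocorticoids. RASD1 was at 38.4, 38.3 and 39.6 CPM in the IMR90 controls and 5.31, 6.05 and 5.59 CPM in set 2, and at 149, 128 and 146 CPM in the Huh7 controls and 340, 323 and 340 CPM with shTHBD. Its effects differed by -4.02 ± 0.0978 (adjusted p = 6.7e-27). AREG encodes amphiregulin, a ligand of the EGF receptor, and was at 351, 362 and 361 CPM in the IMR90 controls and 87.7, 90.6 and 83.8 CPM in set 2. In Huh7, AREG had 10.1, 9.74 and 14.5 CPM in the controls and 29.2, 34.8 and 31.3 CPM with shTHBD, and the difference was -3.51 ± 0.12 (adjusted p = 8.9e-18). ITGB8, the integrin subunit that helps to activate latent TGF-beta, was at 41.1, 38.6 and 41.4 CPM in the IMR90 controls and 8.07, 11 and 10.1 CPM in set 2, and at 6.41, 5.77 and 6.51 CPM in the Huh7 controls and 17.2, 19 and 19.7 CPM with shTHBD. NRIP1, a corepressor of nuclear receptors, had -1.43 ± 0.0564 in IMR90 and 1.19 ± 0.0765 in Huh7, the small G protein gene ARL10 had -1.68 ± 0.106 in IMR90 and 1.12 ± 0.123 in Huh7, and C15orf48, which encodes a small protein of mitochondria, had -1.13 ± 0.0834 in IMR90 and 1.63 ± 0.178 in Huh7.

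**Figure D2:**
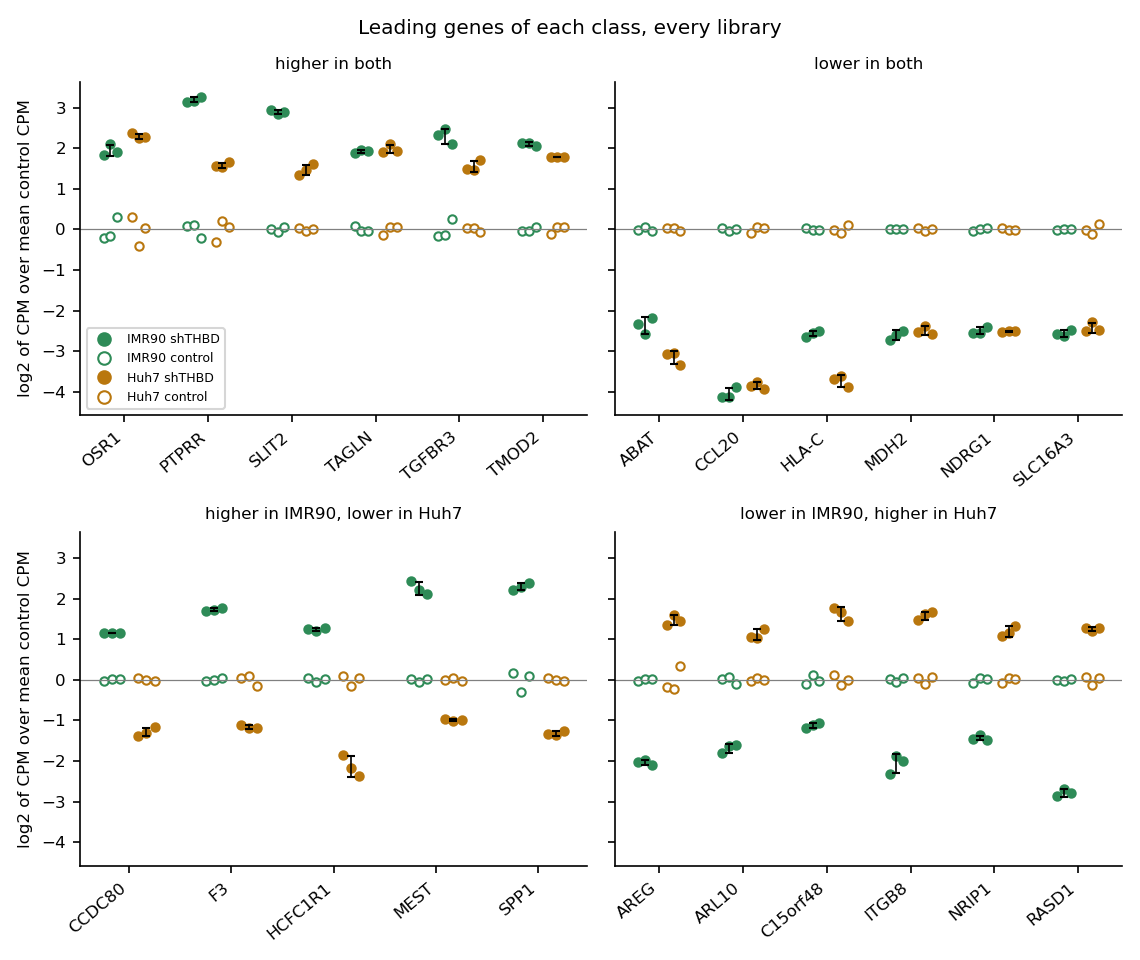
Log2 of CPM over the mean control CPM of the same line (vertical axis) for leading genes of each class, with each library as a point (open control, filled shTHBD; green IMR90, brown Huh7) and the mean ± SD of 3 shTHBD libraries as a black bar. In the upper panels both lines lie on one side of the control level, and in the lower panels they lie on opposite sides.

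Among genes with at least 10 CPM in a group of each line, the largest differences between the effects were those of EGF and PCDH7. EGF, the epidermal growth factor precursor, was at 0.864, 0.276 and 1.58 CPM in the IMR90 controls and 18.9, 18.5 and 17.4 CPM in set 2, and at 36.6, 41.4 and 38.2 CPM in the Huh7 controls and 25.4, 23.1 and 26.8 CPM with shTHBD. Its effects were 4.28 ± 0.187 in IMR90 and -0.62 ± 0.0929 in Huh7, a difference of 4.90 ± 0.237 (adjusted p = 5.8e-17). PCDH7, a cell adhesion protein of the protocadherins, was at 1.67, 1.77 and 1.82 CPM in the IMR90 controls and 42.9, 40.6 and 39.6 CPM in set 2, and at 235, 234 and 242 CPM in the Huh7 controls and 206, 209 and 208 CPM with shTHBD, a difference of 4.73 ± 0.108 (adjusted p = 9.5e-28). The third was SPP1, and the largest differences in the other direction were RASD1, ITGB8 and AREG.

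Members of 28 lists of pathways, cell functions and complexes were counted in the same way, with no test of a list. Over all 12454 genes the median log2 fold change was close to 0 in both lines, which the TMM scaling within each line largely sets. List medians are therefore read relative to the bulk of genes. A change in total RNA shared by most genes would not show in them. The lists that differed most between the lines were those of mitosis (median difference 2.0), DNA replication (1.08) and p53 targets (0.81) on the side higher in IMR90, and the SASP cytokines (-1.60), the SASP proteases and growth factors (-0.94) and the amino acid stress response (-0.65) on the other. Pairs of values after a gene are its log2 fold changes in IMR90 and then in Huh7, and ± marks the approximate SE, with 3 libraries a group. Members named here that are neither leading nor fixed genes nor the first members of their list were chosen after their values were seen. The first members moved alike or oppositely were taken only where replicates did not overlap between the groups of each line.

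**Figure D3:**
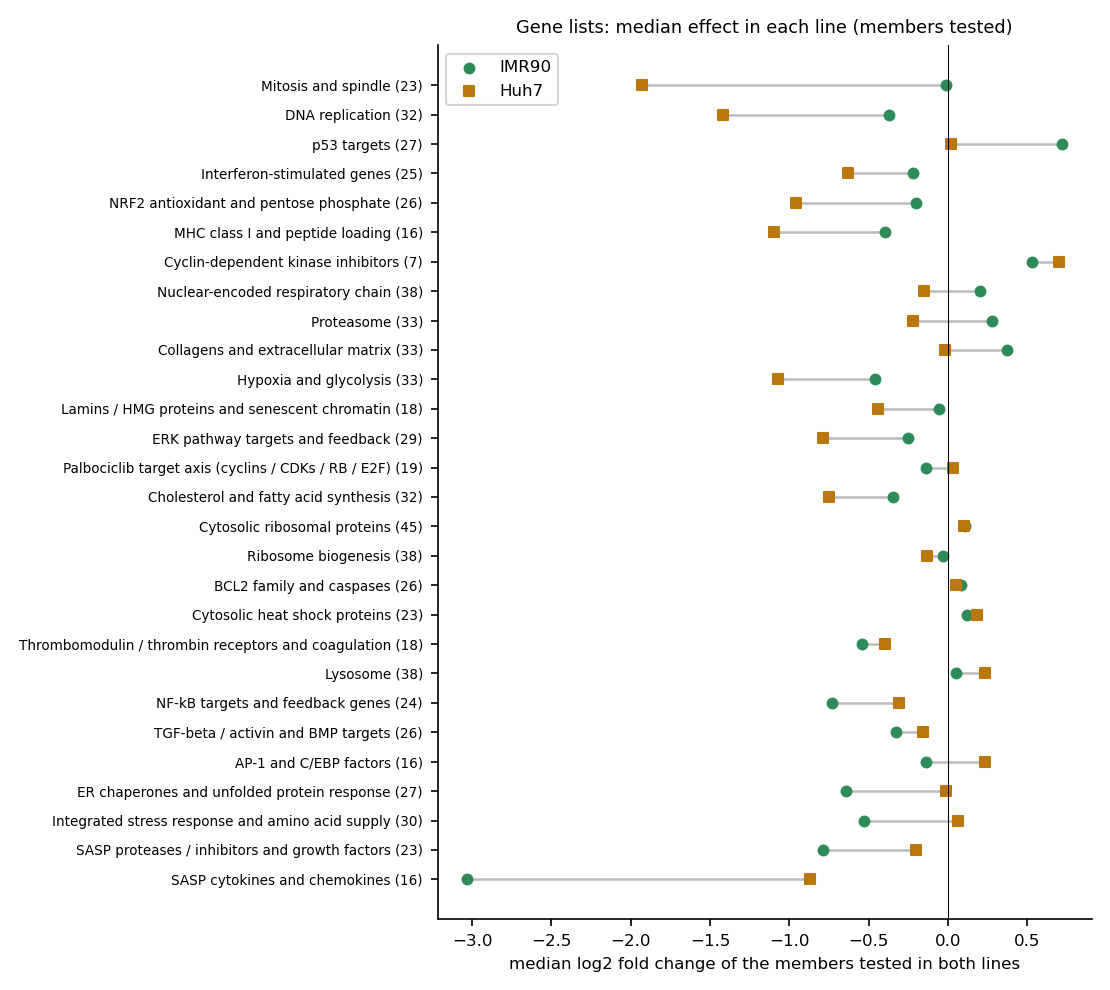
Median log2 fold change of the members tested in both lines (number in brackets) in IMR90 (green circles) and Huh7 (brown squares), lists ordered by the median difference. Mitosis, DNA replication and p53 targets lie further right in IMR90, while the SASP, integrated stress and ER chaperone lists lie further left in IMR90.

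**Figure D4:**
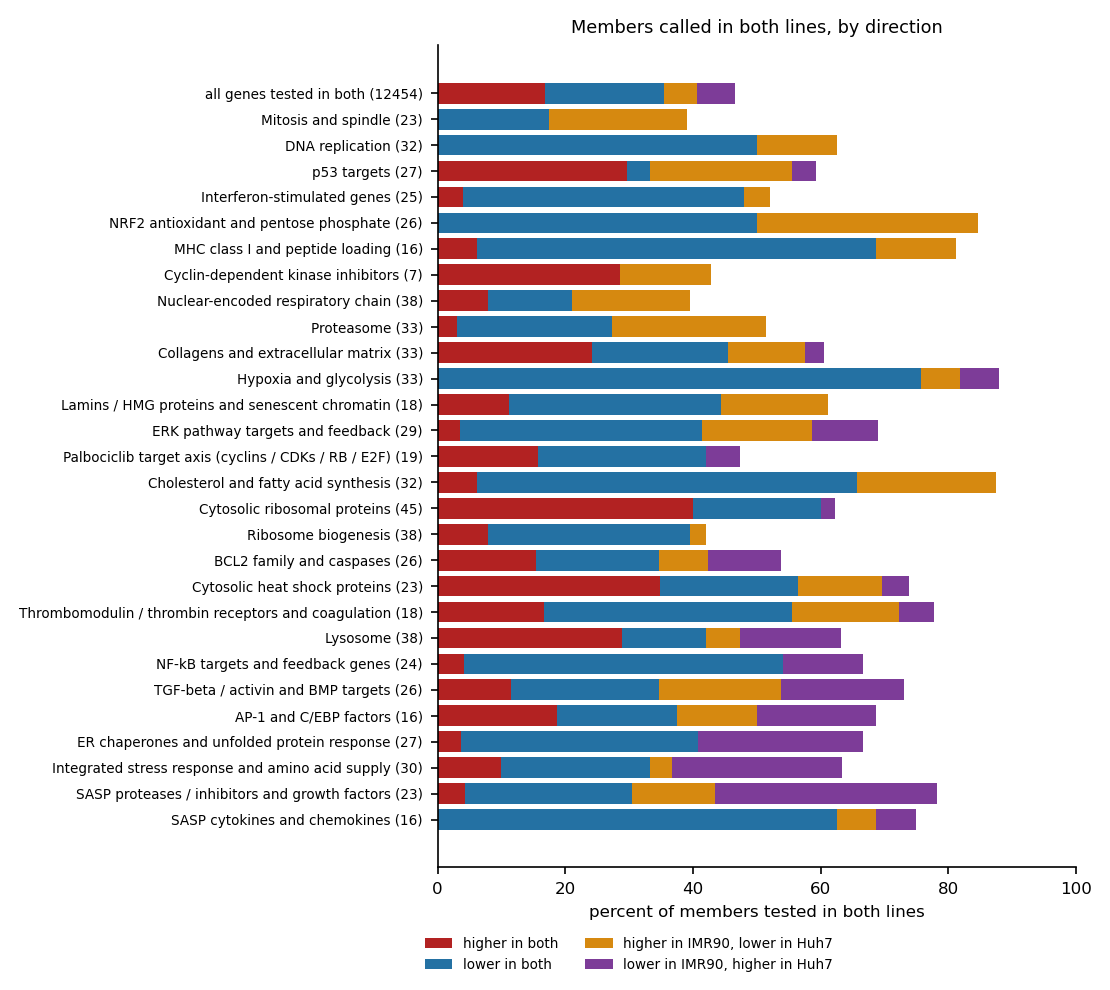
Percent of the members tested in both lines that were called in both, by direction, with all 12454 genes in the top bar. Hypoxia and glycolysis is mostly lower in both, while the NRF2 list is split between lower in both and higher in IMR90 with lower in Huh7.

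Thrombin receptors and their partners did not move as one. Of 30 genes on the list 18 were tested in both lines, and 3 rose in both, 7 fell in both, 3 rose in IMR90 and fell in Huh7, and 1 did the reverse. Over all genes these shares were 16.7%, 18.7%, 5.14% and 5.95%. The count higher in both and the count lower in IMR90 and higher in Huh7 were thus at or near the background. The 1 gene of that opposite class was F2R, the gene of PAR1, at chr5:76716126-76735770, plus strand. F2R was at 433, 447 and 440 CPM in the IMR90 controls and 283, 286 and 269 CPM in set 2, and at 56.5, 54.5 and 53.3 CPM in the Huh7 controls and 114, 120 and 123 CPM with shTHBD, without overlap between groups. Its changes of -0.66 ± 0.0259 in IMR90 and 1.12 ± 0.0662 in Huh7 differed by -1.78 ± 0.064 (adjusted p = 4.2e-22). F2RL1 (PAR2) fell in IMR90, with 274, 268 and 275 CPM in the IMR90 controls and 42.9, 51.2 and 45.1 CPM in set 2. In Huh7 it had 31.3, 30.7 and 27.8 CPM and 27.2, 28.4 and 27.6 CPM, and its change of -0.11 ± 0.0934 did not pass the test (adjusted p = 0.332); the difference was -2.44 ± 0.09 (adjusted p = 7.2e-22). F2RL2 (PAR3) rose in both, with 23.7, 24.8 and 25.9 CPM in the IMR90 controls and 79.5, 79.8 and 78.4 CPM in set 2, and 48.1, 46.3 and 43.1 CPM in the Huh7 controls and 60.9, 50.3 and 65.5 CPM with shTHBD. GNAQ, a G protein subunit through which PAR1 signals, also rose in both (0.39 and 0.64).

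On the clotting side, F3, PROS1 and F10 rose in IMR90 and fell in Huh7. PROS1 encodes protein S, the cofactor of activated protein C, and was at 21, 24.1 and 19.8 CPM in the IMR90 controls and 41, 41.3 and 41.7 CPM in set 2, and at 337, 359 and 322 CPM in the Huh7 controls and 262, 266 and 267 CPM with shTHBD. F10 encodes clotting factor X, with changes of 0.77 ± 0.164 in IMR90 and -0.50 ± 0.0784 in Huh7. Several brakes on clotting and proteolysis fell in both lines. TFPI, the inhibitor of the tissue factor pathway, was at 157, 162 and 168 CPM in the IMR90 controls and 117, 118 and 110 CPM in set 2, and at 94.8, 97.1 and 77.5 CPM in the Huh7 controls and 44.5, 38.5 and 43.2 CPM with shTHBD. Its relative TFPI2 had 3700, 3690 and 3620 CPM in the IMR90 controls and 866, 867 and 900 CPM in set 2, and 83.8, 89.7 and 89.7 CPM in the Huh7 controls and 57.9, 51.9 and 49.4 CPM with shTHBD, with the larger fall in IMR90 (difference -1.34 ± 0.0609, adjusted p = 2.9e-19). SERPINE2, which encodes protease nexin-1, an inhibitor of thrombin, had -2.74 ± 0.0371 in IMR90 and -1.72 ± 0.0863 in Huh7, and SERPIND1, heparin cofactor II, had -1.77 ± 0.26 in IMR90 and -2.17 ± 0.0691 in Huh7. PROCR, the receptor that presents protein C to thrombin and thrombomodulin, was at 69, 66.4 and 65.9 CPM in the IMR90 controls and 59.2, 58.3 and 62.2 CPM in set 2, and at 28.4, 28.7 and 26.3 CPM in the Huh7 controls and 20.7, 22 and 19 CPM with shTHBD; its IMR90 call was lost with upper-quartile scaling (adjusted p = 0.0676). Protein C itself (PROC) had 1, 1 and 0 counts in the IMR90 controls and 1, 0 and 0 in set 2, and was not tested there. In Huh7, PROC fell, with 68.6, 58.3 and 68.8 CPM in the controls and 50.3, 44.3 and 42.9 CPM with shTHBD. Hepatocytes make protein C, factor X, protein S and heparin cofactor II, and the summed hepatocyte markers were lower with shTHBD in Huh7 too, at 7562 to 7751 CPM against 10030 to 10450 CPM; their part in these falls was not tested.

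**Figure D5:**
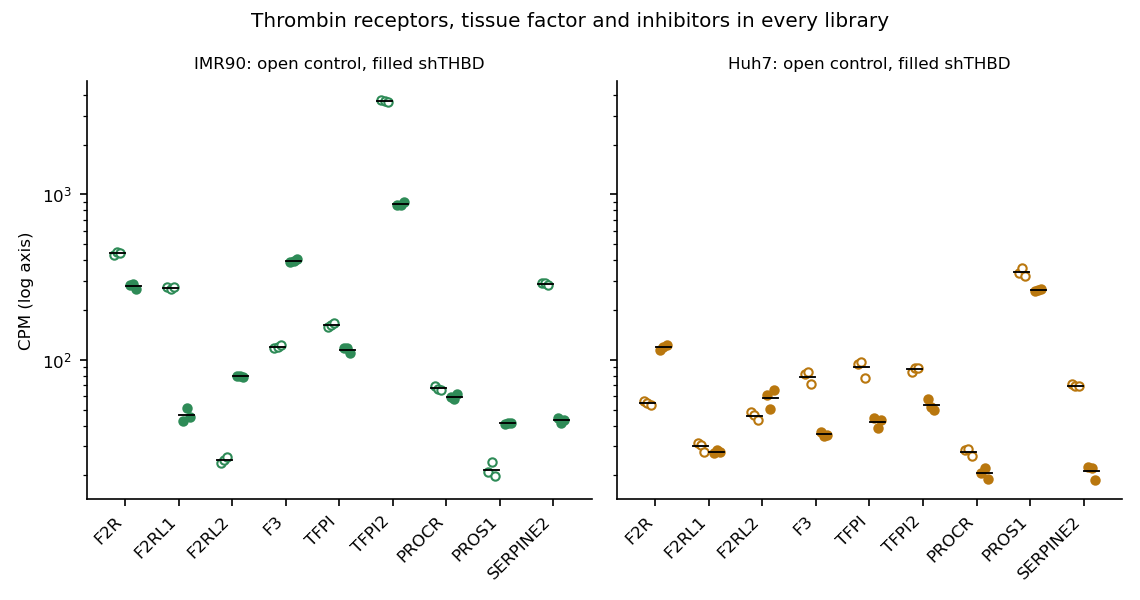
CPM on a log axis of genes of the thrombin and clotting system in IMR90 (left) and Huh7 (right), each library a point (open control, filled shTHBD) with the group mean as a line. F2R falls on the left and rises on the right, while F3 and PROS1 rise on the left and fall on the right.

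SASP cytokines were mostly lower in both lines. Of 16 tested, 14 were lower in IMR90 and 12 in Huh7, 10 of them in both, against 36.7%, 30.7% and 18.7% of all genes. The medians were -3.03 and -0.87, and the difference was called lower in IMR90 for 10, against 27.3% of all genes. CXCL8 (interleukin-8), which draws neutrophils, was at 9040, 8970 and 8900 CPM in the IMR90 controls and 935, 963 and 916 CPM in set 2, and at 236, 250 and 240 CPM in the Huh7 controls and 66.1, 63.5 and 69.3 CPM with shTHBD. The fall was larger in IMR90, and the effects differed by -1.39 ± 0.0506 (adjusted p = 5.7e-22). CXCL1, another neutrophil chemokine, was at 841, 828 and 796 CPM in the IMR90 controls and 51, 46.1 and 44.9 CPM in set 2, and at 285, 278 and 275 CPM in the Huh7 controls and 53.6, 61.2 and 54.6 CPM with shTHBD; its effects differed by -1.81 ± 0.071 (adjusted p = 3.8e-21), and CXCL2 and CXCL3 had -3.88 and -1.01 and -3.85 and -1.23 in IMR90 and Huh7.

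IL6, which encodes a central inflammatory cytokine of the SASP, fell in IMR90, with 434, 425 and 427 CPM in the IMR90 controls and 33.6, 37.8 and 34.5 CPM in set 2. In Huh7 it stood at 3.13, 3.41 and 3 CPM and 1.75, 2.4 and 3.8 CPM, groups that overlap, and its change of -0.27 ± 0.279 did not pass the test (adjusted p = 0.435). The difference from the joint fit, with its shared spread, was -3.31 ± 0.204 (adjusted p = 4.5e-14). IL1B, which drives IL6 and CXCL8, was at 5100, 5020 and 5040 CPM in the IMR90 controls and 892, 896 and 879 CPM in set 2 (log2 fold change -2.51 ± 0.0173). In Huh7, IL1B had 8, 12 and 13 counts in the controls and 0, 0 and 1 with shTHBD, too few for the test. The cytokines called in opposite directions were CXCL12 and IL15. CXCL12, which holds stem cells and lymphocytes in place, had 36, 27 and 35 counts in the IMR90 controls and 22, 17 and 10 in set 2, and 1, 0 and 2 in the Huh7 controls and 34, 29 and 37 with shTHBD. These are low counts, the fitted change in Huh7 depends on the prior count, and the IMR90 call was lost without set 2 replicate 3 (adjusted p = 0.0563). IL15, which sustains natural killer cells, had 1.12 and -0.46; its Huh7 call (adjusted p = 0.0373) was lost without any 1 of 4 libraries, control replicates 2 and 3 and shTHBD replicates 1 and 3 (adjusted p 0.0952 to 0.181).

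Targets of NF-kB, the factor that drives many SASP genes, fell in both lines for 12 of 24 members, against 18.7% of all genes, among them TNFAIP2 (-1.68 and -1.05), the subunit gene NFKB1 (-1.0 and -0.76) and SOD2, the superoxide dismutase of mitochondria (-0.73 and -1.31). TRAF1, an adaptor of TNF receptors, was the leading opposite member, at 24.5, 22.4 and 24.6 CPM in the IMR90 controls and 11.2, 10.7 and 10.3 CPM in set 2, and at 7.3, 8.63 and 7.24 CPM in the Huh7 controls and 13, 10.3 and 12.2 CPM with shTHBD. The kinase gene RIPK2 also moved oppositely (-0.48 and 0.39), as did the feedback gene TNFAIP3, the third such member. PTGS2 (cyclooxygenase 2) fell from 273 to 28.1 CPM in IMR90 and had a mean of 0.653 CPM in the Huh7 controls and 1.33 CPM with shTHBD, a change that was not called (adjusted p = 0.0614; 0.0485 with upper-quartile scaling).

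SASP proteases, their inhibitors and growth factors went apart. Of 23 tested, 18 were lower in IMR90, against 36.7% of all genes; in Huh7 9 were lower and another 9 higher, not far from the 30.7% and 29.1% of all genes. The opposite class, lower in IMR90 and higher in Huh7, held 8 of 23, against 5.95% of all genes, and 6 fell in both. INHBA, the subunit of activin A, was among the 8, with 1480, 1510 and 1520 CPM in the IMR90 controls and 657, 665 and 635 CPM in set 2, and 2.09, 2.16 and 1.96 CPM in the Huh7 controls and 5.68, 8.2 and 9 CPM with shTHBD. Its difference was -3.08 ± 0.149 (adjusted p = 8.3e-16). PLAT, tissue plasminogen activator, had -0.79 ± 0.0241 in IMR90 and 1.11 ± 0.167 in Huh7. Those that fell in both included TNFRSF11B (osteoprotegerin, a decoy receptor for the osteoclast factor RANKL), at 73.5, 72.1 and 74.1 CPM in the IMR90 controls and 8.73, 8.14 and 9.12 CPM in set 2, and at 56.4, 53.1 and 52.2 CPM in the Huh7 controls and 18.6, 17.7 and 18.5 CPM with shTHBD. IGFBP3, which binds insulin-like growth factors, fell by 3.99-fold and 2.21-fold. HBEGF, an EGF receptor ligand, was the only one of the list called higher in both (0.17 and 1.73). IGFBP6 rose in IMR90 and fell in Huh7 (0.48 and -0.88), as did STC2.

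p53 targets were mostly higher in IMR90. Of 27 tested, 22 were higher and 3 lower there, where 35.4% and 36.7% of all genes were. In Huh7 9 were higher and 9 lower, shares near the 29.1% and 30.7% of all genes. The difference was called higher in IMR90 for 21, against 27.6% of all genes. BTG2, an antiproliferative gene, rose in both, from 14.5, 14.7 and 12.7 to 87.1, 93.8 and 85.5 CPM and from 21, 24.3 and 24.9 to 49.8, 54.5 and 47.5 CPM. POLH, a polymerase that copies across damaged DNA, also rose in both (1.83 and 0.89), as did the proapoptotic gene BBC3 (0.93 and 1.14) and the ubiquitin ligase gene MDM2 (1.13 and 0.26). The Huh7 call of MDM2 was lost without control replicate 3 or shTHBD replicate 3 (adjusted p 0.069 and 0.14). SESN1, a stress sensor, rose in IMR90 (1.88 ± 0.0872), and its Huh7 change of 0.15 ± 0.134 was not called. GADD45A, a stress gene, led the 6 that rose in IMR90 and fell in Huh7, with 91.8, 91.9 and 95.8 CPM in the IMR90 controls and 280, 277 and 316 CPM in set 2, and 108, 111 and 127 CPM in the Huh7 controls and 83.2, 81.1 and 72.6 CPM with shTHBD. TP53I3, a quinone oxidoreductase gene, was at 33.6, 35.5 and 38.8 CPM in the IMR90 controls and 59, 57.3 and 58.3 CPM in set 2, and at 24.4, 29.4 and 30.2 CPM in the Huh7 controls and 16.2, 16.6 and 13.6 CPM with shTHBD. DDB2, which finds ultraviolet damage in DNA, had 0.48 ± 0.0778 in IMR90 and -2.08 ± 0.201 in Huh7. TNFRSF10B, a death receptor for TRAIL, went against the list and fell by 2.94-fold and 2.86-fold.

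Of the cyclin-dependent kinase inhibitors, CDKN1A (p21) was at 1190, 1190 and 1190 CPM in the IMR90 controls and 1920, 1930 and 1950 CPM in set 2. In Huh7 it was at 8.29, 6.52 and 6.82 CPM and 5.64, 5.22 and 3.89 CPM, a log2 fold change of -0.55 ± 0.19 (adjusted p = 0.0151) whose call was lost without control replicate 1 (adjusted p = 0.109) or shTHBD replicate 3 (adjusted p = 0.0647). The difference of 1.24 ± 0.111 was called (adjusted p = 2.7e-11). Its SE is below the 0.19 of Huh7 alone, in a joint fit that shared the spread between lines. CDKN2A, the gene of p16 and ARF, rose in IMR90 (0.53 ± 0.0417) and had -0.02 ± 0.089 in Huh7 (adjusted p = 0.891). CDKN1B (p27) and CDKN2B (p15) rose in both lines: CDKN1B was at 14.6, 16.4 and 16.5 CPM in the IMR90 controls and 38.3, 42 and 42.6 CPM in set 2, and at 49.1, 50.2 and 50.7 CPM in the Huh7 controls and 83.5, 80.2 and 80.2 CPM with shTHBD, and CDKN2B had 0.37 and 0.86. Around the target of palbociclib, CCND1 (cyclin D1) fell in both, with 2030, 2070 and 2060 CPM in the IMR90 controls and 439, 442 and 431 CPM in set 2, and 583, 561 and 563 CPM in the Huh7 controls and 217, 209 and 238 CPM with shTHBD. The fall was larger in IMR90, with a difference of -0.87 ± 0.0553 (adjusted p = 2.5e-15). CDK2, the partner kinase of cyclin E, fell by 3.7-fold and 4.98-fold and E2F1, an activator of S-phase genes, by 2.83-fold and 4.18-fold. CDK4 moved oppositely by small amounts (-0.14 and 0.32); its IMR90 call was lost with upper-quartile scaling (adjusted p = 0.137).

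Mitosis genes had the largest median of the gene-by-gene differences among the 28 lists, while the gap between the medians of the lines was wider for SASP cytokines. All 32 DNA replication genes tested were lower in Huh7, with a median of -1.42, while in IMR90 16 were lower and 4 higher, with a median of -0.37, against 36.7% and 35.4% of all genes. All 23 mitosis genes tested were lower in Huh7 (median -1.93), against 4 lower and 5 higher in IMR90 (median -0.01, or 0.06 with upper-quartile scaling), and the difference was called higher in IMR90 for 26 and 22 of them. Of all genes, 30.7% were lower in Huh7, and the difference was called higher in IMR90 for 27.6%. ORC6, a subunit of the origin recognition complex, fell in both: 5.67, 6.89 and 6.13 CPM in the IMR90 controls and 2.35, 1.78 and 2.79 CPM in set 2, and 45.1, 47 and 49.6 CPM in the Huh7 controls and 6.9, 8.05 and 6.97 CPM with shTHBD. MCM4, part of the replicative helicase, had -1.36 ± 0.0954 in IMR90 and -1.52 ± 0.0749 in Huh7, and POLD1, the catalytic subunit of polymerase delta, -0.85 ± 0.0983 in IMR90 and -1.41 ± 0.113 in Huh7. The replication genes that rose in IMR90 and fell in Huh7 were PCNA, RRM1, TYMS and MCM6. PCNA, the sliding clamp of replication, was at 28, 29 and 28.3 CPM in the IMR90 controls and 50.3, 40.2 and 46.6 CPM in set 2, and at 35.1, 32.6 and 31.2 CPM in the Huh7 controls and 24, 24 and 19.9 CPM with shTHBD, and RRM1, the large subunit of ribonucleotide reductase, had 0.51 ± 0.0604 in IMR90 and -0.80 ± 0.0993 in Huh7. TYMS, thymidylate synthase, had 0.76 ± 0.211 in IMR90 and -2.79 ± 0.31 in Huh7.

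Of the mitosis genes, AURKA, a spindle kinase, fell in both, with 14.2, 14.8 and 13.1 CPM in the IMR90 controls and 5.41, 4.27 and 4.95 CPM in set 2, and 34.9, 36.3 and 35.6 CPM in the Huh7 controls and 5.11, 8.7 and 5.47 CPM with shTHBD. CDC20, the activator of the anaphase-promoting complex, was at 3.62, 3.42 and 3.16 CPM in the IMR90 controls and 1.84, 2.59 and 2.16 CPM in set 2, and at 32.9, 35.3 and 35.7 CPM in the Huh7 controls and 4.38, 5.65 and 6.83 CPM with shTHBD; its fall in IMR90 was lost without set 2 replicate 1 (adjusted p = 0.0572). The 5 that rose in IMR90 and fell in Huh7 were HMMR, ANLN, CENPF, PTTG1 and KIF23. ANLN, the scaffold anillin of the cleavage furrow, was at 2.54, 1.54 and 2.25 CPM in the IMR90 controls and 3.83, 4.68 and 4.69 CPM in set 2, and at 90.9, 88.2 and 80.6 CPM in the Huh7 controls and 26, 27.7 and 28.6 CPM with shTHBD; its effects differed by 2.71 ± 0.187 (adjusted p = 2.5e-14). HMMR, a spindle protein that also binds hyaluronan, had only 6, 6 and 2 counts in the IMR90 controls and 24, 22 and 19 in set 2, and in Huh7 14.7, 19.5 and 17.2 CPM and 3.29, 2.55 and 2.99 CPM. CENPF, a kinetochore protein gene, had 1.21 and -1.64. Mitosis genes were low in IMR90 throughout: CCNB1 (cyclin B1) had means of 8.22 and 8.18 CPM there, and in Huh7 it fell from 33 to 7.75 CPM.

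Promoters of cell-cycle genes are known for short elements that mediate their repression when cells leave the cycle: the CHR, searched as TTTGAA, with the CCAAT box in mitosis genes, and E2F sites, searched as TTTNGCGC, in replication genes. RefSeq windows of 300 bases (250 before to 50 after the start, GRCh38.p14) were matched by symbol for 9867 of the 12454 genes and searched on both strands. The CHR was in 73.7% of 19 mitosis promoters and 9.31% of all, the CCAAT box in 84.2% and 36.7%, and the E2F-like word in 40.7% of 27 replication promoters and 2.98% of all. Genes with at least 1.5-fold in each line that rose in IMR90 and fell in Huh7 held the CHR in 19.8% of 86 promoters and the E2F-like word in 0.0%. The CHR was in 13% of the promoters of genes that rose in both by that much, 9.93% of those that fell in both and 10.5% of those that fell in IMR90 and rose in Huh7. In the same order the E2F-like word was in 1.79%, 2.75% and 1.16%. The CHR is rich in A and T, and the classes differed in their share of G and C bases. The median share was 62.3% where genes rose in IMR90 and fell in Huh7, and 64%, 67% and 67% in the other classes in that order. Over all promoters it was 65.3%, and its part in the CHR shares was not tested. The stretches below lie before the start and show the CHR in genes of both patterns and the E2F-like word in 1 gene: HMMR and ANLN rose in IMR90 and fell in Huh7, CDC20 and ORC6 were called lower in both. Capitals mark the CHR on either strand, or in ORC6 the E2F-like word; letters run 5′ to 3′ on the strand of the gene.
HMMR, chr5:163460512-163460631, plus strand: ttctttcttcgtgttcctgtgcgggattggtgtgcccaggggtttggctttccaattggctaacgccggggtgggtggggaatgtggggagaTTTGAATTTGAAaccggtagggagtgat
ANLN, chr7:36389742-36389861, plus strand: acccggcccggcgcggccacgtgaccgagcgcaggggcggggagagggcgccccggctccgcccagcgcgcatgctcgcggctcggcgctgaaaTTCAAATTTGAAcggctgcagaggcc
CDC20, chr1:43358802-43358921, plus strand: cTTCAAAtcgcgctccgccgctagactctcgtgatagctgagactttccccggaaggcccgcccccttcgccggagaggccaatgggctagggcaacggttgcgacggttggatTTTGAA
ORC6, chr16:46689480-46689599, plus strand: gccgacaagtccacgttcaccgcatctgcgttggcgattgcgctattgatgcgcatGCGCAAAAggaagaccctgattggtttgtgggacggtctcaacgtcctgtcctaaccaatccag

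In HMMR the CHR copies begin 28 and 22 bases before the start, and in ANLN 26 and 20, each pair end to end, in ANLN on opposite strands. In CDC20 they begin 178 and 65 bases before it, and the E2F-like word of ORC6 begins 123 bases before it. So the CHR stands before a gene that fell in both lines and before genes that moved oppositely, and a match of letters is not a bound site.

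Targets and feedback genes of the ERK pathway, which lies downstream of RAS, were counted as 1 list and were lower more often than higher in each line. Of 29 tested, 16 were lower in IMR90 and 20 in Huh7, 11 in both, against 36.7%, 30.7% and 18.7% of all genes. The medians were -0.25 and -0.79, and the median difference of 0.23 became -0.13 when 5 CPM were asked of a group. DUSP6, the phosphatase that removes the activating phosphates of ERK, was at 311, 315 and 303 CPM in the IMR90 controls and 161, 153 and 159 CPM in set 2, and at 37, 39.1 and 36.9 CPM in the Huh7 controls and 7.91, 7.35 and 9.68 CPM with shTHBD. SPRY4, an inhibitor of receptor signalling, had -0.89 ± 0.0341 in IMR90 and -2.52 ± 0.0878 in Huh7, and the ETS factors ETV4 and ETV5 had -0.88 and -3.83 and -0.47 and -3.0 in IMR90 and Huh7. The fall was larger in Huh7 for each of these 4 genes; the differences were 1.21, 1.63, 2.95 and 2.52, all called. DUSP4 went the other way, with the larger fall in IMR90 (-1.46 and -0.61). ETV1 moved oppositely to its relatives in IMR90, at 23.7, 23.3 and 20.8 CPM in the IMR90 controls and 39.5, 38.1 and 36.6 CPM in set 2, and at 22.9, 22.5 and 22.8 CPM in the Huh7 controls and 13.2, 14 and 12.8 CPM with shTHBD. FOSL1, an AP-1 subunit, rose in IMR90 from 110 to 133 CPM and fell in Huh7 from 3.22 to 0.387 CPM. HRAS, whose mutant form is named in the IMR90 labels, had 0.16 ± 0.0223 in IMR90 and -0.24 ± 0.124 in Huh7, and the Huh7 change was not called (adjusted p = 0.107).

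TGF-beta and BMP targets moved in all 4 ways, with 5 of 26 tested in each opposite class, 3 higher in both and 6 lower in both. Of all genes, 5.14% rose in IMR90 and fell in Huh7 and 5.95% did the reverse, while 16.7% and 18.7% were higher and lower in both, near the shares on this list. CCN2, a matricellular protein induced by TGF-beta, was at 135, 134 and 129 CPM in the IMR90 controls and 226, 224 and 213 CPM in set 2, and at 876, 855 and 883 CPM in the Huh7 controls and 294, 287 and 274 CPM with shTHBD, a difference of 2.35 ± 0.0577 (adjusted p = 7.3e-27). ID1 and ID2, inhibitors of differentiation factors induced by BMPs, also rose in IMR90 and fell in Huh7 (0.88 and -0.91 and 1.18 and -0.47), together with BAMBI. INHBA, LTBP2, SKIL, TGFBR1 and SMAD7 went the reverse way; LTBP2, which binds fibrillin in the matrix, had -1.32 and 0.71 and SKIL, a repressor of SMADs, -0.69 and 0.54. TGFBI, a secreted matrix protein gene, fell in both, with 1480, 1430 and 1460 CPM in the IMR90 controls and 295, 296 and 290 CPM in set 2, and 1200, 1140 and 1130 CPM in the Huh7 controls and 382, 383 and 373 CPM with shTHBD. TGFB2, the ligand, rose in both (1.22 and 0.74).

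Collagen and matrix genes rose more often in IMR90 (18 of 33) than they fell (14), against 35.4% and 36.7% of all genes, and in Huh7 9 rose and 12 fell, near the 29.1% and 30.7% of all genes. COL1A2, a chain of type I collagen, rose in both, with 818, 811 and 799 CPM in the IMR90 controls and 3440, 3440 and 3390 CPM in set 2, and 191, 195 and 187 CPM in the Huh7 controls and 391, 412 and 375 CPM with shTHBD. COL11A1 and COL3A1 rose in both too (2.20 and 1.40 and 1.32 and 0.93), as did LUM, the proteoglycan lumican (2.29 and 0.42). Of these COL1A2, COL3A1 and LUM are also among the fibroblast markers, whose sum was higher with shTHBD in both lines although 5 of the 13, among them PDGFRA and THY1, had lower means in set 2; the part of that sum in these results was not tested. COL4A1, of basement membranes, rose in IMR90, with 448, 450 and 454 CPM in the IMR90 controls and 763, 790 and 774 CPM in set 2, and fell in Huh7, with 10.5, 10.4 and 11.7 CPM in the Huh7 controls and 2.31, 1.7 and 1.45 CPM with shTHBD. FBLN5, an elastic fibre protein, and THBS1, thrombospondin 1, moved the same opposite way, with 0.73 and -0.84 and 1.35 and -0.37; LOXL4 was the fourth, and VCAN the only one lower in IMR90 and higher in Huh7.

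Genes of the low-oxygen response and of glycolysis mostly fell in both lines, by amounts that differed. Of 33 tested, 28 were lower in IMR90 and 27 in Huh7, 25 in both, against 36.7%, 30.7% and 18.7% of all genes. The medians were -0.46 and -1.07. The difference was called higher in IMR90 for 19 and lower for 8, against 27.6% and 27.3% of all genes. The count lower was thus near the background. SLC2A1, the glucose transporter GLUT1, was at 197, 191 and 197 CPM in the IMR90 controls and 78.4, 86.5 and 80.7 CPM in set 2, and at 101, 88.7 and 103 CPM in the Huh7 controls and 17.3, 15.9 and 18.3 CPM with shTHBD. The fall was larger in Huh7 by 1.26 ± 0.089 (adjusted p = 4.5e-14). HK2, a hexokinase, had -2.07 and -1.21, while 2 late steps of glycolysis fell more in Huh7: PKM, pyruvate kinase, had -0.24 and -1.72 and LDHA, lactate dehydrogenase, -0.09 and -1.74. The IMR90 call of LDHA was lost with upper-quartile scaling (adjusted p = 0.226). ENO2, the neuronal enolase, broke the pattern, with 203, 196 and 195 CPM in the IMR90 controls and 68.9, 71.2 and 70.3 CPM in set 2, and 5.42, 5.77 and 7.5 CPM in the Huh7 controls and 13.2, 14.1 and 10.9 CPM with shTHBD. P4HA2 also fell in IMR90 and rose in Huh7, and ADM, the vasodilator adrenomedullin (0.29 and -0.43), and PDK1 did the reverse.

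NRF2 targets, which serve glutathione and thioredoxin chemistry, were lower in Huh7 for all 26 members tested (median -0.96), against 30.7% of all genes. In IMR90, 13 were lower and 9 higher, against 36.7% and 35.4% of all genes, so the count higher was near the background. As all fell in Huh7, 13 fell in both and 9 moved oppositely, against 18.7% and 5.14% of all genes. TXNRD1, thioredoxin reductase, fell in both, with 392, 384 and 392 CPM in the IMR90 controls and 93.7, 99.3 and 95.9 CPM in set 2, and 1870, 2030 and 1890 CPM in the Huh7 controls and 312, 316 and 286 CPM with shTHBD. GCLM, a subunit of the enzyme that starts glutathione synthesis, had -1.52 ± 0.0661 in IMR90 and -1.62 ± 0.0611 in Huh7, with an interval of the difference of -0.08 to 0.28. NQO1, a quinone reductase, moved oppositely, with 34.4, 30 and 33.4 CPM in the IMR90 controls and 57.3, 58.2 and 57.7 CPM in set 2, and 414, 405 and 385 CPM in the Huh7 controls and 93.7, 95.5 and 98.1 CPM with shTHBD, a difference of 2.89 ± 0.075 (adjusted p = 3.2e-26). ME1, malic enzyme, had 0.68 ± 0.0415 in IMR90 and -1.07 ± 0.0596 in Huh7. AKR1B10, an aldo-keto reductase, was near 0 in IMR90 (0.216, 0.386 and 0.0958 CPM in the controls and 1.99, 1.88 and 2.85 CPM in set 2) and fell in Huh7, with 502, 504 and 489 CPM and 72.9, 70.7 and 69 CPM.

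Lipid synthesis genes fell in Huh7 and were divided in IMR90. Of 32 genes of cholesterol and fatty acid synthesis, 19 fell in both lines and 7 rose in IMR90 and fell in Huh7, against 18.7% and 5.14% of all genes. SCD, FADS2 and FASN, which desaturate and make fatty acids, fell by 2.67-fold, 3.09-fold and 3.07-fold in IMR90 and by 2.92-fold, 3.27-fold and 2.39-fold in Huh7. Among the 7 opposite genes were HMGCS1, ACAT2, MVK, IDI1, FDFT1 and MSMO1, all enzymes of the cholesterol route. HMGCS1, which makes HMG-CoA for that route, was at 58.2, 61 and 55.7 CPM in the IMR90 controls and 70.6, 76.7 and 67.9 CPM in set 2, and at 415, 438 and 398 CPM in the Huh7 controls and 241, 233 and 244 CPM with shTHBD. MSMO1, a sterol oxidase, had 0.40 ± 0.0357 in IMR90 and -0.84 ± 0.0591 in Huh7 and ACAT2 had 0.26 ± 0.0768 in IMR90 and -1.59 ± 0.116 in Huh7.

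The response of cells to amino acid shortage and stress in the endoplasmic reticulum (ER) was mostly lower in IMR90. Of 30 genes of the integrated stress response, which runs through the factor ATF4, 21 were lower in IMR90, against 36.7% of all genes, while in Huh7 12 were higher and 9 lower, against 29.1% and 30.7%; 8 fell in IMR90 and rose in Huh7, against 5.95% of all genes. CHAC1, which degrades glutathione, was at 56.8, 60.3 and 60.7 CPM in the IMR90 controls and 24.6, 27 and 23.2 CPM in set 2, and at 17.4, 18.1 and 22 CPM in the Huh7 controls and 34.9, 38.5 and 30.7 CPM with shTHBD, a difference of -2.11 ± 0.128 (adjusted p = 9.1e-16). ALDH1L2 and MTHFD2, of folate metabolism in mitochondria, had -0.72 and 1.02 and -0.47 and 0.63, the transporter SLC1A4 -1.10 and 0.65, and DDIT3 (CHOP) -0.85 and 0.44. ATF4 fell in IMR90 (-0.59 ± 0.0293) and its small rise in Huh7 (0.14 ± 0.0593, adjusted p = 0.0448) was lost without any 1 of 4 libraries, control replicates 1 and 2 and shTHBD replicates 1 and 2 (adjusted p 0.104 to 0.281). ATF3, a stress factor, rose in both, with 16.7, 16.3 and 13.5 CPM in the IMR90 controls and 20.5, 20.7 and 22.2 CPM in set 2, and 17.3, 17.1 and 19.6 CPM in the Huh7 controls and 45, 46.1 and 47.9 CPM with shTHBD. SLC7A5, a leucine transporter, fell in both (-0.84 and -0.86).

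ER chaperones fell in IMR90 for 25 of 27 members (median -0.64), against 36.7% of all genes. In Huh7 8 were higher and 10 lower, near the 29.1% and 30.7% of all genes (median -0.01, or 0.04 with upper-quartile scaling). The difference was called lower in IMR90 for 24, against 27.3% of all genes. HERPUD1, a membrane protein of ER-associated degradation, led the 7 opposite members, with 143, 141 and 139 CPM in the IMR90 controls and 77, 73.6 and 68.5 CPM in set 2, and 80.4, 87.6 and 78.1 CPM in the Huh7 controls and 129, 127 and 115 CPM with shTHBD. HSPA5 (BiP), the main chaperone of the ER, was at 2200, 2170 and 2170 CPM in the IMR90 controls and 1110, 1180 and 1130 CPM in set 2, and at 748, 728 and 698 CPM in the Huh7 controls and 774, 790 and 802 CPM with shTHBD. Its rise in Huh7 of 0.12 ± 0.0489 (adjusted p = 0.0344) was lost when 1 library other than control replicate 1 was left out (adjusted p 0.0687 to 0.167), and its difference of -1.06 ± 0.0494 was called (adjusted p = 6.0e-19). CANX, calnexin, which folds glycoproteins, had -0.34 ± 0.0198 in IMR90 and 0.19 ± 0.054 in Huh7, and EDEM1, of glycoprotein disposal, -0.66 and 0.22. Lower in both were SDF2L1 (-1.78 and -1.12), DNAJC3 (-1.36 and -0.57) and HYOU1 (-1.58 and -0.48), all partners of BiP.

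Known elements of these responses are the ER stress element (ERSE), searched as CCAAT, 9 bases and CCACG, and sites that ATF4 can bind, searched as TGATGNAA. The ERSE was in 24% of 25 chaperone promoters and 0.142% of all; each ERSE holds a CCAAT box, which was in 88.0% of them. The ATF4-like word was in 20% of 25 integrated stress promoters and 1.57% of all. Among genes with at least 1.5-fold in each line, it was in 5 of 86 promoters (5.81%) of those lower in IMR90 and higher in Huh7. It was in 2.33% of those that did the reverse, 1.79% of those higher in both and 1.96% of those lower in both. The ERSE was in 0.0% of the promoters of each opposite class and 0.261% of those lower in both. These shares rest on few promoters and were not tested. The stretches show the words in chaperone and stress genes with larger and smaller effects: HSPA5 and CANX with the ERSE, and CHAC1 and HERPUD1, which moved oppositely, and ATF3, which rose in both, with the ATF4-like word. Capitals mark the ERSE with the bases between its ends, or the ATF4-like word on either strand.
HSPA5, chr9:125241344-125241463, minus strand: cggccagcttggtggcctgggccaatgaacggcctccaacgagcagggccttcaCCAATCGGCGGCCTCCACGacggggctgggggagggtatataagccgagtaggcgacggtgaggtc
CANX, chr5:179698727-179698846, plus strand: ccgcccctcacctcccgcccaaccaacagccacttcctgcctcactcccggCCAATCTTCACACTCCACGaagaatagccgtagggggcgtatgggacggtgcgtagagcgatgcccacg
CHAC1, chr15:40953221-40953340, plus strand: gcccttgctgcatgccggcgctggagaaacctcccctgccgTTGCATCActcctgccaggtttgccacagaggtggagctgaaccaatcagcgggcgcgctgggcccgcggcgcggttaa
HERPUD1, chr16:56931910-56932029, plus strand: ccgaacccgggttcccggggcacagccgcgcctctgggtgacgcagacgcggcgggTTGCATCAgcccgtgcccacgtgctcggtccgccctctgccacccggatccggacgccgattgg
ATF3, chr1:212565160-212565279, plus strand: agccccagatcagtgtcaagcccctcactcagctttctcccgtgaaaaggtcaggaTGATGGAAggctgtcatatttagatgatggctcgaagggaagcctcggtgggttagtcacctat

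The ERSE begins 66 bases before the start in HSPA5 and 151 in CANX. The ATF4-like word begins 209 bases before the start in CHAC1, 176 in HERPUD1 and 191 in ATF3.

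Antigen presentation through MHC class I fell in both lines for 10 of 16 members tested, against 18.7% of all genes, with medians of -0.40 and -1.10. HLA-B was at 697, 670 and 683 CPM in the IMR90 controls and 266, 260 and 256 CPM in set 2, and at 25.2, 24 and 23.3 CPM in the Huh7 controls and 6.49, 4.95 and 3.85 CPM with shTHBD. PSME2, of the proteasome activator, rose in IMR90 and fell in Huh7 (0.16 and -1.06), as did the peptide-loading gene TAPBP, whose Huh7 call was lost without control replicate 1 or 3 or shTHBD replicate 1 or 2 (adjusted p 0.0778 to 0.188). Interferon-stimulated genes fell in both for 11 of 25, against the same 18.7%, among them OAS3, a sensor enzyme of viral RNA (-2.35 and -2.44). GBP2, a guanylate-binding protein, was the only one called higher in both, with 6.64, 7.61 and 5.89 CPM in the IMR90 controls and 54.5, 54.9 and 56.1 CPM in set 2, and 54.5, 54.5 and 51.1 CPM in the Huh7 controls and 147, 142 and 147 CPM with shTHBD. GBP3, of the same family, rose in IMR90 and fell in Huh7 (0.24 and -1.63). Subunits of the proteasome were higher in IMR90 for 18 of 33 and lower in Huh7 for 21; 8 rose in IMR90 and fell in Huh7 and 8 fell in both. The shares of all genes were 35.4%, 30.7%, 5.14% and 18.7%, so the count lower in both was near the background. PSMB2, a core subunit, was at 132, 133 and 128 CPM in the IMR90 controls and 173, 176 and 180 CPM in set 2, and at 110, 109 and 104 CPM in the Huh7 controls and 86.3, 85.1 and 89.5 CPM with shTHBD, while PSMD2, of the cap, had -0.83 ± 0.021 in IMR90 and -0.88 ± 0.0583 in Huh7.

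Nuclear-encoded subunits of the respiratory chain were shifted between the lines by small amounts: 23 of 38 were higher in IMR90, 15 were lower in Huh7, and the difference was called higher in IMR90 for 28. Of all genes, 35.4%, 30.7% and 27.6% did so, and the count lower in Huh7 was not far above its share. The medians were 0.20 and -0.15. NDUFB3 and NDUFA1, of complex I, rose in IMR90 and fell in Huh7 (0.37 and -0.54 and 0.21 and -0.76). CYC1, cytochrome c1, and NDUFA10 fell in both (-0.51 and -0.58 and -0.56 and -0.98). The share of mitochondrially encoded RNA was 5.431% to 5.479% in the IMR90 controls and 6.378% to 6.582% in set 2, without overlap, and in Huh7 the groups overlapped.

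Ribosomal protein genes called in both lines moved the same way in each with 1 exception, some up and some down. Of 45 tested, 18 rose in both and 9 fell in both, and 1 moved oppositely, RPL10A (-0.18 and 0.23); of all genes, 16.7% rose and 18.7% fell in both, the latter near the share on this list. RPL14 was at 486, 488 and 486 CPM in the IMR90 controls and 159, 171 and 168 CPM in set 2, and at 446, 458 and 442 CPM in the Huh7 controls and 135, 140 and 133 CPM with shTHBD. RPL8 had -1.07 and -1.36 and RPL3 -1.01 and -1.04, while RPS19, which rose in both, had 0.82 and 0.27. In ribosome biogenesis, NOP10 and NHP2, proteins of the H/ACA particles that guide pseudouridine formation, fell in both: NOP10 was at 115, 117 and 112 CPM in the IMR90 controls and 24.3, 21.5 and 23.7 CPM in set 2, and at 50, 52.3 and 57.1 CPM in the Huh7 controls and 7.87, 6.38 and 7.1 CPM with shTHBD, and NHP2 had -1.01 ± 0.0645 in IMR90 and -1.78 ± 0.112 in Huh7. GAR1, of the same particles, was called in opposite directions (0.18 and -0.53), with its IMR90 call lost without control replicate 1 or 3 or set 2 replicate 2 (adjusted p 0.0742 to 0.178). Ribosomal protein genes have many processed copies in the genome, which can take their reads.

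Lysosomal genes rose in Huh7 for 22 of 38 members, against 29.1% of all genes. In IMR90 16 rose, not far above the 35.4% of all genes, and 11 were higher in both, against 16.7%. LAMP1, a main protein of the lysosomal membrane, was at 535, 541 and 538 CPM in the IMR90 controls and 806, 794 and 797 CPM in set 2, and at 470, 437 and 463 CPM in the Huh7 controls and 929, 928 and 934 CPM with shTHBD, with the larger rise in Huh7 (difference -0.46, adjusted p = 2.3e-09). SMPD1, acid sphingomyelinase, had 0.48 and 1.09. NAGLU and ARSB, which degrade glycosaminoglycans, fell in both (-1.22 and -1.51 and -1.18 and -0.80), and so did NPC1, the cholesterol exporter (-1.14 and -0.60). GAA, acid alpha-glucosidase, fell in IMR90 and rose in Huh7 (-1.04 and 0.22). GM2A, an activator of ganglioside breakdown, went the reverse way (0.27 and -0.83).

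Cytosolic heat shock proteins had like medians in both lines (0.12 and 0.18), with 8 of 23 higher and 5 lower in both, against 16.7% and 18.7% of all genes. HSPB8, a small heat shock protein of muscle and nerve, was at 13, 13.2 and 12.4 CPM in the IMR90 controls and 47.7, 51.9 and 49.5 CPM in set 2, and at 86, 93.3 and 88.7 CPM in the Huh7 controls and 134, 145 and 136 CPM with shTHBD. DNAJB4, a co-chaperone, had 1.32 and 0.77. CRYAB, alpha-B crystallin, rose in IMR90 and fell in Huh7 at low levels, from 0.324, 0.662 and 0.575 to 2.04, 2.9 and 2.16 CPM and from 0.834, 1.25 and 1.14 to 0.122, 0.193 and 0.317 CPM.

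Of 26 genes of cell death and survival tested, 4 rose in both, 5 fell in both, 2 rose in IMR90 and fell in Huh7, and 3 did the reverse. The shares of all genes were 16.7%, 18.7%, 5.14% and 5.95%. The counts moved alike were thus near the background, and the opposite counts are small. BCL2L1 (BCL-XL), which protects senescent cells from apoptosis, rose in IMR90, with 47.3, 45.7 and 48.3 CPM in the IMR90 controls and 83.5, 83.1 and 81.7 CPM in set 2, and fell in Huh7, with 238, 253 and 258 CPM in the Huh7 controls and 174, 182 and 167 CPM with shTHBD. The effects differed by 1.33 ± 0.071 (adjusted p = 2.2e-17). BAK1, which permeates the mitochondrial membrane, moved the same way (0.70 and -0.30). MCL1, another survival protein, fell in both, further in IMR90 (-1.27 and -0.25, difference -1.02). BMF, a BH3-only death gene, fell in IMR90 and rose in Huh7 (-0.55 and 1.66). BID, a link between death receptors and mitochondria, fell alike (-0.61 ± 0.0416 in IMR90 and -0.63 ± 0.076 in Huh7, interval of the difference -0.14 to 0.18).

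Chromatin genes linked to senescence included HMGA1, which fell in both (-0.42 and -0.50), and HMGA2, which rose in IMR90 and fell in Huh7, with 732, 730 and 733 CPM in the IMR90 controls and 882, 870 and 891 CPM in set 2, and 52.7, 49.5 and 51.1 CPM in the Huh7 controls and 25.2, 26.8 and 33.3 CPM with shTHBD. HMGB2 and the histone chaperone gene ASF1A moved in the same opposite way (1.17 and -0.44 and 1.16 and -0.44). SUV39H1, a histone H3 methyltransferase, fell in both (-1.02 and -2.07). LMNB1, lamin B1, whose loss marks senescent cells, was at 2.59, 1.54 and 2.44 CPM in the IMR90 controls and 1.89, 2.59 and 1.74 CPM in set 2, where no change was called (adjusted p = 0.785). In Huh7 it was at 17.7, 16.8 and 17.5 CPM and 14.5, 15 and 10.8 CPM, a log2 fold change of -0.36 ± 0.129 (adjusted p = 0.0177) whose call was lost without control replicate 1 (adjusted p = 0.0581) or shTHBD replicate 3 (adjusted p = 0.111), and the difference was not called (interval -0.26 to 0.81). Of the AP-1 and C/EBP factors, MAFF fell in both (-1.33 and -2.0), MAFK fell in IMR90 and rose in Huh7 (-0.70 and 0.84) and CEBPD did the reverse (0.72 and -0.45). GDF15, a secreted stress factor, fell in IMR90 (-0.63 ± 0.0248) and had -0.13 ± 0.0725 in Huh7 (adjusted p = 0.121), which passed the test without shTHBD replicate 1 (adjusted p = 0.0275).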

How the data were processed

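The values are whole-number read counts per gene that the authors deposited as a table for each cell line. Reads were trimmed with fastp, aligned with STAR to GRCh38 and counted with featureCounts, per the submitters' processing notes. Per the file headers, the IMR90 table was made with featureCounts 2.0.1 on GENCODE 38 exons by gene name, with no strand option and no counting of multi-mapping reads, so overlapping and antisense genes cannot be told apart. For Huh7 the counting version and gene models were not given in the sources at hand. Genes were joined on identical names; shared genes held 98.954% of the IMR90 and 98.58% of the Huh7 counts.

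Each line was fitted alone with edgeR 4.0.16 (R 4.3.3), with filterByExpr, TMM scaling, the robust quasi-likelihood F test and Benjamini-Hochberg adjustment (0.05). The difference was a contrast in a joint fit of the 12 libraries with the TMM factors of each line. The dispersion of each gene in that fit was shared by the lines. SE are log2 fold changes divided by the square root of F. The test was also run on simulated counts in which only a small set of well-counted genes changed. Most genes were called in each line here, so that run does not check the test for these data. No count table was scaled against the other, so levels are compared within a line.

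Named were, by rule, the first 6 genes of each of 4 classes by the smaller change, the 3 largest differences in each direction, 15 fixed genes and up to 2 members moved alike and 2 moved oppositely of each of 28 lists; other genes were chosen after their values were seen. Some genes that the rule names are not reported here. The comparison, its members and the lists were chosen with earlier results of these data known. Alternatives (23 settings) were other scalings and filters, DESeq2 1.42.0, limma 3.58.1, current gene symbols, a stricter threshold, the replicate number as a block and each library left out in turn. Promoter windows came from RefSeq and 11 words were searched, with 1 window per gene. Only the CHR, CCAAT, E2F-like, ERSE and ATF4-like words are described above. The ARE word (TGACNNNGC) was in 26.3% of 19 NRF2 promoters, 40% of 25 lysosome promoters and 15.5% of all. The SRE-like word (TCACNCCAC) was in 4% of 25 lipid synthesis promoters and 1.15% of all. The NF-kB-like word (GGGANTTCC) was in 15% of 20 NF-kB target promoters, 2.42% of all and 2.22% of the 1.5-fold class lower in both.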

Additional observations from a re-analysis of the deposited data

Results flagged for a closer look

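The IMR90 and Huh7 effects differed, by the interaction contrast of edgeR's quasi-likelihood test with Benjamini-Hochberg adjustment, for 3432 genes higher in IMR90 and 3403 lower. Line, inducer, hairpin and table cannot be told apart in any of these differences. Among the leading genes, the IMR90 effect lay above the Huh7 effect (log2) by 4.90 ± 0.237 (SE) for EGF, 4.73 ± 0.108 for PCDH7, 3.60 ± 0.0928 for SPP1, 3.36 ± 0.162 for HCFC1R1, 3.24 ± 0.142 for MEST, 2.89 ± 0.0761 for F3 and 2.44 ± 0.0623 for CCDC80. It lay below it for RASD1 (-4.02 ± 0.0978), ITGB8 (-3.63 ± 0.159), AREG (-3.51 ± 0.12), ARL10 (-2.79 ± 0.162), C15orf48 (-2.76 ± 0.177) and NRIP1 (-2.62 ± 0.0982). These genes were ranked on the same data, so their sizes are a description. The SE rest on a spread shared by both lines and can understate the noise in Huh7.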

How the results depend on the processing

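Of the counts over all genes, 1 moved by over 1.5 times under an alternative. With a mean of at least 5 CPM asked of a group in each line, 119 genes moved oppositely by at least 1.5-fold in each line, against 238; that filter tests fewer genes. Leaving out each library of the line in turn gave 9827 to 10013 genes called in IMR90 and 8382 to 9220 in Huh7. Leaving out each of the 12 libraries gave 6368 to 6919 in the difference, 4082 to 4433 alike (1439 to 1489 with at least 1.5-fold) and 1243 to 1352 opposite (223 to 247). DESeq2 called 9552, 8980 and 6755 genes in IMR90, Huh7 and the difference, and gave 4168 alike and 1236 opposite. No called value of a named gene or count reversed under the settings run. Of 84 list medians, which have no call, 10 changed sign under a filter or scaling, with reported values from -0.22 to 0.23: at 5 CPM the median difference of ERK targets went from 0.23 to -0.13 and that of the palbociclib axis from 0.18 to -0.07, and the IMR90 median of interferon genes from -0.22 to 0.07. For single genes and lists, 192 values fell below the threshold, 14 rose past it, 162 list medians moved and 15763 values held; lost calls of named genes stand beside them in the text where a library decided them, and the cause of the other changes was not tested. Upper-quartile scaling shifted the median of all genes by 0.071 in IMR90 and 0.054 in Huh7 and turned 1 gene between classes.

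With the replicate block, 10126 genes were called in IMR90, 8808 in Huh7, 6453 in the difference, 4216 alike and 1279 opposite. Same-numbered libraries did not deviate together (correlations 0.00974, 0.017 and 0.0215 in IMR90, and -0.0236, -0.0158 and -0.0524 in Huh7), so the numbers were not taken to pair samples. In Huh7 the wider spread limits small effects, and genes near 0 in a line, such as THBD and IL1B in Huh7, could not be compared.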
